A study of Mus musculus with 36 samples.

Results

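The 10 genes described here belong to the autophagy machinery. They were followed through RNA-seq libraries of mouse pancreatic fibroblasts, chosen as the rows of the count table whose symbol is Map1lc3a, Map1lc3b, Gabarapl1, Sqstm1, Ulk1, Becn1, Wipi1, Atg5, Atg7 or Tfeb. All 10 symbols had 1 row each among the 39017 genes of the table, and all 10 were among the 14439 genes abundant enough to be tested. The fibroblasts came from the C57BL/6 strain and were grown either alone (mono-culture) or together with a tumour line (direct co-culture, 48 h), after which cells without the GFP that the tumour cells carry were collected by flow sorting. Whether the mono-culture was sorted as well is not given in the sources used here. The tumour lines were the sub-clones E, H, K, M, N, T and V and a line called KPC1, a name that the labels do not explain. Each of these 9 cultures gave 4 libraries, 36 in all. Each sub-clone is a single clone, and no source used here says whether the 4 libraries of a culture came from separate cultures, so the p-values measure only the spread between these libraries.

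Autophagy encloses cytoplasmic cargo in a double membrane, the autophagosome, which then fuses with the lysosome. The Ulk1 kinase complex starts the process and the Beclin 1 lipid kinase complex makes the phosphoinositide that WIPI proteins bind, while Atg7 and the Atg12-Atg5 conjugate attach ATG8 proteins (the LC3 and GABARAP families) to the growing membrane. Cargo receptors such as p62 (Sqstm1) bridge ubiquitinated cargo to ATG8 proteins, and p62, like LC3, is itself degraded in the process. Transcript levels therefore say how much message for the machinery was present, not how much autophagy took place. In pancreatic stellate cells, a kind of resident fibroblast of the pancreas, autophagy is known as a source of amino acids that tumour cells can take up.

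Library totals lay between 12532122 and 21985538 counts, and each of the 10 genes had at least 183 counts in every library. Levels are given as CPM, counts scaled by library total and TMM factor, and differences as log2 fold changes from edgeR with p-values adjusted over the 14439 genes. A gene is called higher or lower where the adjusted p is under 0.05. All 10 fibroblast markers looked for were detected in every culture, with a summed level of 10902 to 32116 CPM per library. Col1a1, Col1a2, Col3a1 and Vim were the largest part. Dcn was at 178 to 453 CPM in mono-culture and 31.1 to 515 CPM in co-culture, and Pdgfra at 270 to 353 and 40.6 to 374 CPM. Lum was at 3.61 to 9.46 and 0.105 to 12.4 CPM, and Fap at 0.640 to 1.52 and 12.8 to 79.7 CPM. The 11 tumour epithelium markers summed to 2.81 to 4.29 CPM in the mono-culture libraries and to 20.7 to 801 CPM in the co-culture libraries, with Krt8 and Krt18 the largest part and Epcam at most 0.325 CPM there. Markers of leukocytes (1.35 to 16.1 CPM in sum over 7 genes) and endothelium (1.12 to 6.39 CPM over 5 genes) were low throughout. The part of tumour RNA in the differences described here was not tested beyond leaving out, in each co-culture, the library with the highest share of tumour markers. In bulk libraries, fewer cells of a type and less RNA per cell cannot be told apart.

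Against mono-culture, the mean of the 8 co-cultures had 4 of the 10 genes called higher (Wipi1, Tfeb, Atg5 and Map1lc3a), beside 26.1% of all genes tested. Map1lc3b, Sqstm1 and Ulk1, 3 of the 10, were called lower, beside 26.6% of all genes. Becn1, Gabarapl1 and Atg7 did not pass the test. The largest differences were the fall in Map1lc3b, -0.55 (SE 0.090, adjusted p = 6.9e-06), and the rise in Wipi1, 0.51 (SE 0.082, adjusted p = 4.8e-06). The median log2 fold change of the 10 genes was 0.13, that of all genes tested 0.0069. Map1lc3b, Wipi1 and Tfeb kept their calls in this mean contrast under each alternative that was run. Those of Atg5, Map1lc3a, Sqstm1 and Ulk1 were lost under some of them, as given with each gene. Calls of the 10 genes that were lost or gained without scaling beyond library size were so too with limma on the RPKM values, which carry no such scaling.

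Single lines, which all share the 4 mono-culture libraries, differed in how many of the 10 genes they moved. With clone E, 2 genes were called higher and 2 lower, beside 16.5% and 15.5% of all genes. Clone H gave 4 higher and 2 lower (27.8% and 26.4% of all genes), and clone K gave 2 higher and 3 lower (10.4% and 8.69%). With clone M the counts were 2 and 2 (12.2% and 10.8%), and with clone N 3 and 3 (19.7% and 19.2%). Clone T had 4 higher and 1 lower (25% and 24.7%), clone V 5 and 1 (29.4% and 28.9%) and KPC1 5 and 1 (30.5% and 28.5%). The 4 lines with the most of the 10 genes called higher (clones H, T and V and KPC1) also had the highest shares of all genes called higher. With both directions together, clones H, N and V and KPC1 had 6 of the 10 genes called each. Among the 8 co-cultures themselves, 8 of the 10 genes differed by line, beside 72% of all genes tested, and Ulk1 (adjusted p = 0.76) and Atg7 (adjusted p = 0.17) did not pass.

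**Figure D1:**
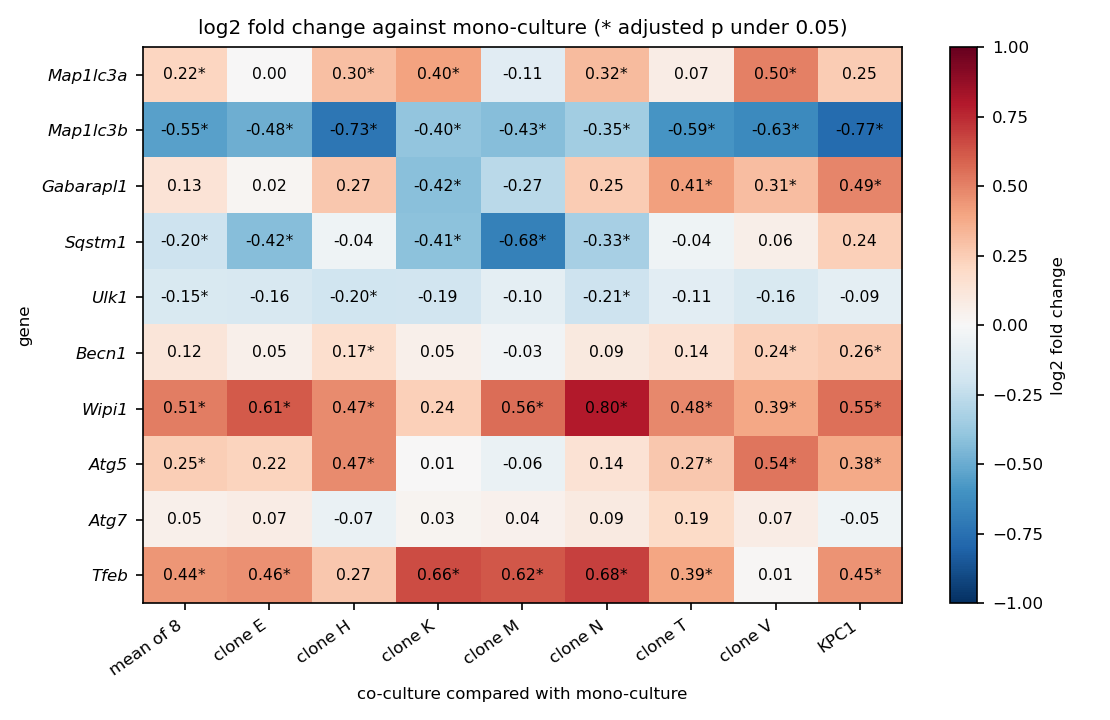
Heat map of the log2 fold change of each of the 10 genes (rows) against mono-culture for the mean of the 8 co-cultures and for each tumour line (columns), with the value printed in each cell and an asterisk where the adjusted p was under 0.05. Map1lc3b was called lower in every column, from -0.35 with clone N to -0.77 with KPC1, whereas Sqstm1 ran from -0.68 with clone M to 0.24 with KPC1.

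Promoter sequence is shown for 4 of the genes, taken from RefSeq (GRCm38.p6) as the 150 bases before the annotated transcript start, 5′ to 3′ on the gene's strand. Map1lc3b and Wipi1 are shown because they had the largest fall and rise, and Atg5 and Atg7 because they alone among the 8 genes with a RefSeq promoter entry held an E-box, the site that MiT/TFE factors such as Tfeb bind. Capitals mark the E-box (CACGTG) and the GC box (GGGCGG, or CCGCCC on the other strand).
Map1lc3b: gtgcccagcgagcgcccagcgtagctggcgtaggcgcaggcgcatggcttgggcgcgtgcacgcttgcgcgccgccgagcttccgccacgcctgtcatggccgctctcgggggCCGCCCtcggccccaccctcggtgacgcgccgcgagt
Wipi1: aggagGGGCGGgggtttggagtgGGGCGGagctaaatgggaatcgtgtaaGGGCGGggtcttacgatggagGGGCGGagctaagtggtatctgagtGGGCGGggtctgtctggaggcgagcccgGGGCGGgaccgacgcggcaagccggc
Atg5: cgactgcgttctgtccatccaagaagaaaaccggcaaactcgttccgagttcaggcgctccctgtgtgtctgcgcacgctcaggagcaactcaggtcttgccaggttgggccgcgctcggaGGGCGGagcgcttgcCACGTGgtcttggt
Atg7: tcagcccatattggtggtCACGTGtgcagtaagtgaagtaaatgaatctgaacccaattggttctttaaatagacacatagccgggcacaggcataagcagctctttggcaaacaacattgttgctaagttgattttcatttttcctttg

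These windows lie at chr8:121590288-121590437 (Map1lc3b, plus strand), chr11:109611390-109611539 (Wipi1, minus strand), chr10:44268189-44268338 (Atg5, plus strand) and chr6:114670946-114671095 (Atg7, plus strand). The windows of Wipi1 and Atg7 lie inside the gene spans given with these genes and that of Map1lc3b overlaps its span, since the annotation of the spans (GENCODE) begins further upstream than the RefSeq starts. For Atg7 the GENCODE span begins at 114643097, so its window is not the sequence before the 5′ end of that span. The E-box began 14 bases before the RefSeq start of Atg5 and 132 bases before that of Atg7. Of 32851 mouse promoter windows of 250 bases before the start, 6.02% held CACGTG and 32.7% held a GC box on either strand. A GC box was found in 7 of the 8 genes, and the 250-base window of Wipi1 held 8 of them. The longer E-box core TCACGTGA (0.785% of all promoters) and the amino acid response element TTGCATCA, on either strand (0.791%), were found in none of the 8. Becn1 and Map1lc3a are named only. A match of letters is a description, and Atg5 was called higher in the co-culture mean whereas Atg7 was not.

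The ATG8 genes moved in different directions. Map1lc3b (ENSMUSG00000031812, chr8:121590361-121598760, plus strand, GRCm38) encodes LC3B, the protein whose lipidated form marks autophagosomes. Its 4 mono-culture libraries, in replicate order, stood at 253, 263, 244 and 217 CPM. The co-cultures stood at 145, 184, 175 and 193 with clone E, 141, 146, 132 and 172 with clone H and 155, 171, 201 and 214 with clone K. Those of the next lines were 187, 168, 168 and 204 with clone M, 175, 188, 188 and 216 with clone N and 166, 139.6, 159.7 and 184 with clone T. The remaining libraries had 159.8, 155, 155 and 159.7 with clone V and 113, 119.5, 152 and 189 with KPC1. Every co-culture library lay below all 4 mono-culture libraries, and in the order of means mono-culture (244 ± 19.6 CPM, SD, n = 4) stood apart while each other pair of neighbours overlapped. KPC1 libraries were the most scattered (143 ± 35.02 CPM) and clone V libraries the least (157 ± 2.67 CPM).

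The log2 fold changes of Map1lc3b were -0.48 with clone E (adjusted p = 0.0035), -0.73 with clone H (adjusted p = 1.6e-05), -0.40 with clone K (adjusted p = 0.024), -0.43 with clone M (adjusted p = 0.013), -0.35 with clone N (adjusted p = 0.028), -0.59 with clone T (adjusted p = 0.00026), -0.63 with clone V (adjusted p = 7.5e-05) and -0.77 with KPC1 (adjusted p = 5.2e-06), with an SE of 0.13 in each. On the fitted scale the mean of the co-cultures was 0.685 times the mono-culture level. The gene also differed among the 8 lines (adjusted p = 0.021), a call that was lost without KPC1 replicate 1 or 2 (adjusted p between 0.051 and 0.052) and without the library richest in tumour markers of each line (adjusted p = 0.24). The mean contrast without those 8 libraries was -0.54 (adjusted p = 2.9e-05). In the clone K library with the lowest sum of tumour markers, 20.7 CPM, Map1lc3b stood at 171 CPM. In the clone K library with the highest sum, 306 CPM, it stood at 214 CPM. Clones N, T and V also had more Map1lc3b in the library with the highest sum than in that with the lowest. The reverse held with clone E (175 against 184 CPM), clone H (132 against 146 CPM) and KPC1 (113 against 119.5 CPM). With clone M both libraries stood at 168 CPM. Whether tumour RNA had a part in these values was not tested. The call for clone K was lost without clone K replicate 1 or 2 or mono-culture replicate 2 or 3 (adjusted p between 0.052 and 0.10). That for clone M was lost without clone M replicate 3 (adjusted p = 0.051), and that for clone N without clone N replicate 1, 2 or 3 or mono-culture replicate 2 or 3 (adjusted p between 0.054 and 0.082). Exons of Zcchc14 overlap Map1lc3b on the opposite strand, and Zcchc14 had 1719 to 4319 counts per library beside 1982 to 4772 for Map1lc3b. Whether counting used strand is not given in the sources used here, so reads of the pair may not be told apart.

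**Figure D2:**
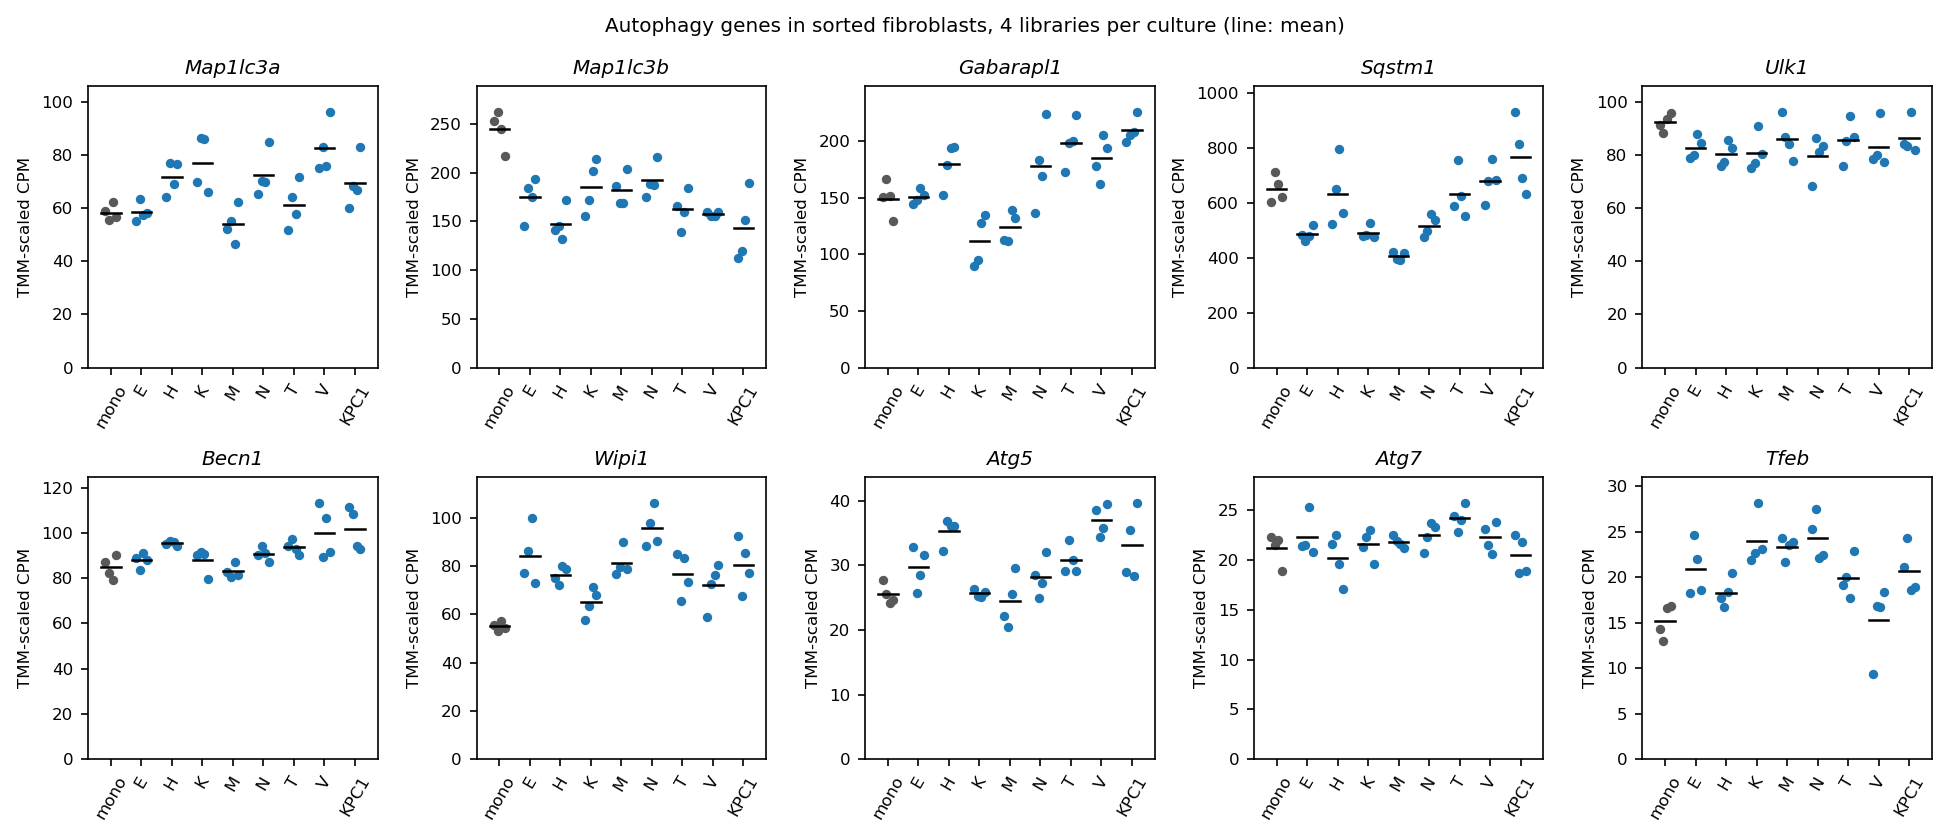
TMM-scaled CPM (vertical axes, starting at 0) of the 10 genes in each of the 36 libraries, with mono-culture in grey, co-cultures in blue and the mean of 4 libraries as a line. All blue points of Map1lc3b lie below the grey points, all blue points of Wipi1 lie above them, and Sqstm1 lies below them with clones E, K, M and N.

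Map1lc3a (ENSMUSG00000027602, chr2:155276297-155278073, plus strand), which encodes the related protein LC3A, was called higher in the co-culture mean, 0.22 (SE 0.086, adjusted p = 0.034). Mono-culture libraries had 58.7, 55.5, 62.3 and 56.6 CPM. Values were 55.1, 63.4, 57.4 and 57.9 with clone E, 64.1, 76.7, 69.1 and 76.5 with clone H and 69.9, 86.2, 85.97 and 65.96 with clone K. Next came 52.00, 55.1, 46.4 and 62.2 with clone M, 65.3, 70.03, 69.8 and 84.9 with clone N and 51.9, 64.1, 57.6 and 71.6 with clone T. The libraries with clone V and KPC1, the last of the 8 lines, had 75.2, 82.9, 75.6 and 96.2 with clone V and 60.05, 68.4, 66.7 and 82.9 with KPC1. All libraries of clones H, K, N and V lay above those of mono-culture, and those of clones E, M and T and of KPC1 overlapped with them. On RPKM those of clone H overlapped too. The log2 fold changes were 0.0048 with clone E (adjusted p = 0.98), 0.30 with clone H (adjusted p = 0.026), 0.40 with clone K (adjusted p = 0.011), -0.11 with clone M (adjusted p = 0.52), 0.32 with clone N (adjusted p = 0.026), 0.074 with clone T (adjusted p = 0.62), 0.50 with clone V (adjusted p = 0.00032) and 0.25 with KPC1 (adjusted p = 0.052).

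The gene differed among lines (adjusted p = 0.00015), although neighbours in the order of means overlapped from clone V at the top to clone M at the bottom. The mean call for Map1lc3a was lost without mono-culture replicate 1, 2 or 4 (adjusted p between 0.085 and 0.10), without scaling beyond library size (adjusted p = 0.17) and with a minimum of 10 counts in every library (adjusted p = 0.058). The calls for clones H and N were also lost without that scaling (adjusted p = 0.13 and 0.094). Clone H lost its call without clone H replicate 2 or 4 or mono-culture replicate 2 or 4 (adjusted p between 0.054 and 0.071), clone K without clone K replicate 3 (adjusted p = 0.052) and clone N without clone N replicate 4 or mono-culture replicate 1, 2 or 4 (adjusted p between 0.062 and 0.12). KPC1 gained a call without KPC1 replicate 1, mono-culture replicate 3, replicate 1 of clone H, 2 or 3 of clone K, 3 of clone M, 4 of clone N, 1 or 4 of clone T or 4 of clone V (adjusted p between 0.029 and 0.049), with the replicate number as a block (adjusted p = 0.024) and without the library richest in tumour markers of each line (adjusted p = 0.020). Map1lc3a in clone V kept its call in each of these.

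Gabarapl1 (ENSMUSG00000030161, chr6:129533160-129542346, plus strand), a GABARAP family member, did not pass in the co-culture mean, 0.13 (SE 0.096, adjusted p = 0.25), and was called in opposite directions by line. Mono-culture libraries stood at 150.3, 166, 151 and 129 CPM. With the first lines the values were 144, 148, 159 and 152 with clone E, 152, 179, 194 and 195 with clone H and 89.5, 94.7, 128 and 134 with clone K. Clones M, N and T gave 112, 112, 139 and 132 with clone M, 136, 183, 169 and 224 with clone N and 172, 199, 199.9 and 223 with clone T. The other cultures gave 178, 162, 206 and 194 with clone V and 199, 206, 208 and 226 with KPC1. All libraries of clone T and KPC1 lay above mono-culture, and no line lay wholly below it. It was called higher with clone T, 0.41 (SE 0.13, adjusted p = 0.0076), clone V, 0.31 (SE 0.13, adjusted p = 0.036), and KPC1, 0.49 (SE 0.13, adjusted p = 0.0013), and lower with clone K, -0.42 (SE 0.13, adjusted p = 0.019).

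The remaining lines gave log2 fold changes of 0.016 (clone E, adjusted p = 0.95), 0.27 (clone H, adjusted p = 0.069), -0.27 (clone M, adjusted p = 0.13) and 0.25 (clone N, adjusted p = 0.11). The test among lines gave an adjusted p of 6.8e-07. With the replicate number as a block clones H and M also passed, clone M as lower (adjusted p = 0.030 and 0.037), although the numbers were not taken to pair the libraries. The call for clone K was lost without clone K replicate 1 or 2 or mono-culture replicate 2 (adjusted p between 0.073 and 0.092). That for clone V was lost without clone V replicate 3 or 4 or mono-culture replicate 1 or 4 (adjusted p between 0.055 and 0.11), without scaling beyond library size (adjusted p = 0.17), with a minimum of 10 counts in every library (adjusted p = 0.055) and without the library richest in tumour markers of each line (adjusted p = 0.074). Clone H gained a call without clone H replicate 1, clone N replicate 1 or mono-culture replicate 2 (adjusted p between 0.032 and 0.048) and where only its libraries and those of mono-culture were fitted (adjusted p = 0.039), and clone N without its replicate 1 (adjusted p = 0.027). Calls for clone T and KPC1 held in each of these.

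On the scale of RPKM, which divides by gene length and so allows genes to be compared, Gabarap had the largest share of the ATG8 level in each culture. In mono-culture Gabarap, not one of the 10 genes, made up 66.4 ± 1.12% of the summed RPKM of Map1lc3a, Map1lc3b, Gabarap, Gabarapl1 and Gabarapl2 (SD, n = 4). With clone V it made up 49.7 ± 1.44% and with KPC1 49.5 ± 1.80%, the lowest of the 9 cultures. The share of Gabarapl1 was 13.4 ± 0.512% in mono-culture and 26.4 ± 2.13% with KPC1, while with clone K it was 13.2 ± 1.32%. The share of Map1lc3b was 9.65 ± 0.120% in mono-culture and 7.78 ± 0.865% with KPC1. All libraries of clones H, T and V and of KPC1 had a smaller share of Map1lc3b than each mono-culture library, and those of clones E, K, M and N overlapped with mono-culture. The summed RPKM of the 5 genes was 638 ± 42.2 in mono-culture, with a lowest library of 582. It was 485 ± 57.6 with clone N, the line with the highest sum, whose highest library reached 566.

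The RPKM ratio of Map1lc3b to Map1lc3a was 1.13 ± 0.110 in mono-culture, and each mono-culture library had more Map1lc3b than Map1lc3a (ratios of 1.03 to 1.27). It was 0.911 ± 0.0733 with clone M and 0.802 ± 0.0787 with clone E. With clone T it was 0.720 ± 0.114, beside 0.713 ± 0.0188 for clone N and 0.658 ± 0.148 for clone K. The lowest ratios were 0.555 ± 0.0508 with clone H, 0.549 ± 0.0736 with KPC1 and 0.518 ± 0.0558 with clone V. No co-culture library reached a ratio of 1, the highest being 0.976 with clone M. The ratio needs no scaling between libraries. Its level, and so its place above or below 1, rests on the gene lengths behind the RPKM values. These were 4130 bp for Map1lc3b and 1110 bp for Map1lc3a. It also rests on counts of Map1lc3b, which may not be told apart from those of Zcchc14.

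**Figure D3:**
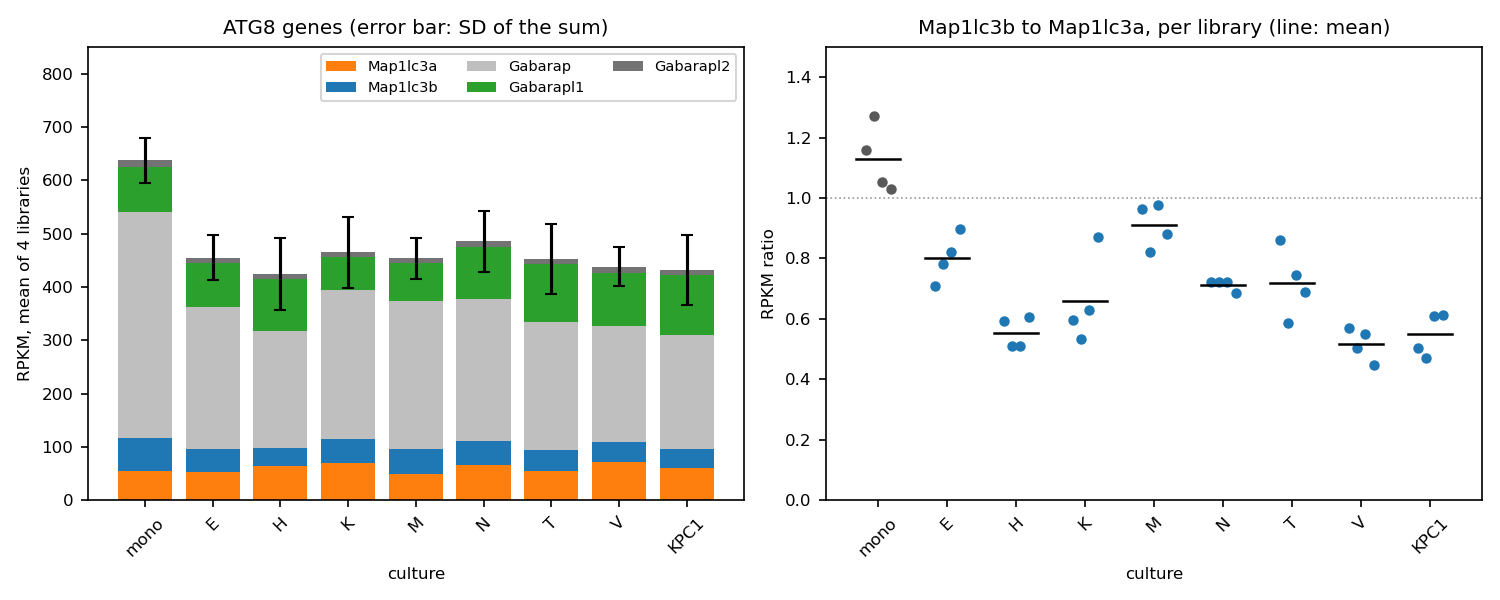
Left, mean RPKM of the 5 ATG8 genes stacked for each culture, with the SD of the summed RPKM over 4 libraries as the error bar. Right, the RPKM ratio of Map1lc3b to Map1lc3a in each library with the mean as a line, where the 4 mono-culture libraries lie above 1 (dotted line) and the 32 co-culture libraries below it.

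Sqstm1 (ENSMUSG00000015837, chr11:50199366-50210827, minus strand) encodes the cargo receptor p62, which carries ubiquitinated proteins and aggregates to the autophagosome. It had the highest level per length of the 10 genes, with a median of 215 RPKM over the libraries. Mono-culture libraries stood at 602, 712, 668 and 620.02 CPM. Its values were 484, 459, 480.1 and 519 with clone E, 523, 651, 794 and 562 with clone H and 479, 481, 526 and 476 with clone K. Further values were 422, 395, 392 and 418 with clone M, 476, 499, 558 and 536 with clone N and 589.7, 756, 625 and 552 with clone T. Clone V and KPC1 had 591, 679.7, 759 and 683 with clone V and 932, 813, 691 and 631 with KPC1. All libraries of clones E, K, M and N lay below mono-culture, those of the other lines overlapped with it, and clone M, the lowest by mean (407 ± 15.4 CPM), did not overlap with its neighbour clone E (485 ± 24.8 CPM). No other neighbours in the order of means were apart.

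Log2 fold changes of Sqstm1 were -0.42 with clone E (adjusted p = 0.0051), -0.041 with clone H (adjusted p = 0.79), -0.41 with clone K (adjusted p = 0.011), -0.68 with clone M (adjusted p = 5.1e-05), -0.33 with clone N (adjusted p = 0.022), -0.045 with clone T (adjusted p = 0.77), 0.059 with clone V (adjusted p = 0.68) and 0.24 with KPC1 (adjusted p = 0.076), and the gene differed among the 8 lines (adjusted p = 2.7e-07). The co-culture mean was -0.20 (SE 0.084, adjusted p = 0.042), an average over lines of both signs. That call was lost without mono-culture replicate 2, 3 or 4, replicate 2 or 3 of clone E, 1 or 2 of clone K, 2 or 3 of clone M, 2 of clone N or 3 of clone T (adjusted p between 0.051 and 0.20), and with no filter on low counts (adjusted p = 0.083). Clone N lost its call without clone N replicate 2 or mono-culture replicate 2 or 3 (adjusted p between 0.056 and 0.078). KPC1 gained one, as higher, without its replicate 4 (adjusted p = 0.018). The calls for clones E, K and M held. Mrnip overlaps exons of Sqstm1 on the opposite strand, with at most 250 counts per library against at least 5604 for Sqstm1.

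Of the genes that start the autophagosome, Wipi1 rose, Ulk1 was called slightly lower and Becn1 did not pass in the co-culture mean. Wipi1 (ENSMUSG00000041895, chr11:109573331-109611967, minus strand) encodes a protein that binds the phosphoinositide of the forming membrane. In mono-culture its libraries had 55.5, 52.98, 57.3 and 54.4 CPM. In co-culture they had 77.2, 86.2, 99.98 and 72.9 with clone E, 75.2, 72.02, 79.9 and 78.6 with clone H and 57.6, 63.6, 71.2 and 67.9 with clone K. Clones M, N and T, in turn, had 76.7, 79.6, 90.03 and 78.9 with clone M, 88.2, 97.8, 106 and 90.6 with clone N and 85.1, 65.6, 83.3 and 73.5 with clone T. The last lines had 59.01, 72.6, 76.4 and 80.6 with clone V and 92.6, 67.5, 85.3 and 77.2 with KPC1. On this scale every co-culture library exceeded all 4 mono-culture libraries, and the lowest of them was the first of clone K. On RPKM, without the TMM factor, clones K (lowest 17.6 RPKM) and V (lowest 17.2 RPKM) overlapped with mono-culture (highest 17.99 RPKM). Mono-culture (55.1 ± 1.84 CPM) stood apart from clone K (65.1 ± 5.85 CPM), its neighbour in the order of means, and every other pair of neighbours overlapped up to clone N (95.7 ± 8.06 CPM).

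For Wipi1 the log2 fold changes were 0.61 with clone E (adjusted p = 4.5e-05), 0.47 with clone H (adjusted p = 0.00033), 0.24 with clone K (adjusted p = 0.11), 0.56 with clone M (adjusted p = 0.00017), 0.80 with clone N (adjusted p = 4.8e-07), 0.48 with clone T (adjusted p = 0.00032), 0.39 with clone V (adjusted p = 0.0020) and 0.55 with KPC1 (adjusted p = 4.2e-05). The mean of the co-cultures was 1.43 times mono-culture on the fitted scale, and lines differed from each other (adjusted p = 0.0016). Clone K passed where only its libraries and those of mono-culture were fitted (adjusted p = 0.032), and leaving out any 1 library changed no call for this gene. In the clone K and clone V libraries lowest in tumour markers (20.7 and 32.6 CPM in sum) Wipi1 stood at 63.6 and 72.6 CPM. Both lay above every mono-culture library, as all co-culture libraries did. In every line Wipi1 was higher in the library richest in tumour markers than in the poorest. The gap was smallest with clone K (67.9 against 63.6 CPM) and widest with KPC1 (92.6 against 67.5 CPM). Whether tumour RNA added to the rise was not tested.

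Ulk1 (ENSMUSG00000029512, chr5:110784488-110810097, minus strand), the kinase that starts autophagy, was slightly lower in the co-culture mean, -0.15 (SE 0.063, adjusted p = 0.042). Mono-culture libraries had 91.3, 88.4, 93.5 and 95.8 CPM, and the means of the co-cultures lay between 79.7 ± 7.95 CPM with clone N and 86.4 ± 6.62 CPM with KPC1. All neighbours in the order of means overlapped. By line it was called lower with clone H, -0.20 (SE 0.085, adjusted p = 0.046), and clone N, -0.21 (SE 0.085, adjusted p = 0.048), and in the others ranged from -0.19 (clone K) to -0.094 (KPC1) without passing. These calls were weak. The mean call was lost without any 1 of the mono-culture libraries, replicate 1 or 2 of clones E, H or K, 2 or 3 of clone M, 3 of clone N, 2 of clone T, 2 of clone V or 4 of KPC1 (adjusted p between 0.051 and 0.14), and without the library richest in tumour markers of each line (adjusted p = 0.056). Clone H lost its call without clone H replicate 1, 2 or 4 or mono-culture replicate 1, 3 or 4 (adjusted p between 0.052 and 0.12). Clone N lost it without clone N replicate 1, 3 or 4, mono-culture replicate 2, 3 or 4, replicate 1, 2 or 3 of clone E, 1 or 2 of clones H or K, 2 or 3 of clones M or T, 2 of clone V or 4 of KPC1 (adjusted p between 0.051 and 0.14), and where only the libraries compared were fitted (adjusted p = 0.071). All 3 calls were lost with no filter on low counts (adjusted p between 0.086 and 0.14). Clone V gained a call without its replicate 3 (adjusted p = 0.027) and with a minimum of 10 counts in every library (adjusted p = 0.046), and clones K and V gained one without scaling beyond library size (adjusted p = 0.044 and 0.014).

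Becn1 (ENSMUSG00000035086, chr11:101285952-101302286, minus strand), the Beclin 1 subunit of the lipid kinase complex, did not pass in the co-culture mean, 0.12 (SE 0.054, adjusted p = 0.057). Its mono-culture libraries had 87.3, 82.5, 79.3 and 90.4 CPM, those of clone H 94.97, 96.4, 95.8 and 94.4, those of clone V 113, 89.4, 106 and 91.6 and those of KPC1 112, 109, 94.3 and 92.96. It was called higher with KPC1, 0.26 (SE 0.071, adjusted p = 0.0021), clone V, 0.24 (SE 0.071, adjusted p = 0.0050), and clone H, 0.17 (SE 0.071, adjusted p = 0.046). Clone V libraries overlapped with mono-culture although the gene was called, and those of clones H and T and KPC1 did not. On RPKM the libraries of every line overlapped with mono-culture. The other lines ranged from -0.033 (clone M) to 0.14 (clone T, adjusted p = 0.095), and the test among lines gave an adjusted p of 0.0058. The call for clone V was lost without scaling beyond library size (adjusted p = 0.099) and where only the 8 libraries of that comparison were fitted (adjusted p = 0.067), and the test among lines was lost without that scaling too (adjusted p = 0.091). That for clone H was lost without any 1 clone H library, mono-culture replicate 1, 2 or 3, replicate 1, 3 or 4 of clones E or T, 1, 2 or 3 of clones K or N or 1, 2 or 4 of clone M (adjusted p between 0.050 and 0.10), and with RLE scaling (adjusted p = 0.060). Without scaling beyond library size its value fell to 0.078 (adjusted p = 0.39). The clone H call was lost as well with no filter on low counts (adjusted p = 0.071), a minimum of 10 counts in every library (adjusted p = 0.11), only the libraries compared (adjusted p = 0.063) and without the library richest in tumour markers of each line (adjusted p = 0.077). In the mean contrast the gene passed without clone E replicate 2, KPC1 replicate 4, clone N replicate 4, mono-culture replicate 4 or clone V replicate 2 (adjusted p between 0.033 and 0.048), with DESeq2 (adjusted p = 0.050) and with the replicate number as a block (adjusted p = 0.048). Cntd1 overlaps exons of Becn1 on the opposite strand, with 6 to 116 counts per library against at least 1043 for Becn1.

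Of the pair of conjugation genes, Atg5 passed in the co-culture mean and Atg7 did not, and the difference between them was not tested. Atg5 (ENSMUSG00000038160, chr10:44268358-44364291, plus strand), the partner of Atg12 in the complex that places ATG8 proteins on the membrane, was called higher in the co-culture mean, 0.25 (SE 0.081, adjusted p = 0.012). Mono-culture libraries stood at 27.7, 25.5, 24.1 and 24.7 CPM. Those in co-culture were 32.8, 25.8, 28.6 and 31.7 with clone E, 32.3, 36.9, 36.1 and 36.1 with clone H and 26.3, 25.3, 25.1 and 25.9 with clone K. Then followed 22.1, 20.5, 25.6 and 29.5 with clone M, 28.5, 24.97, 27.3 and 32.04 with clone N and 29.2, 33.96, 30.9 and 29.2 with clone T. Last were 38.5, 34.3, 35.9 and 39.4 with clone V and 28.9, 35.5, 28.4 and 39.6 with KPC1. All libraries of clones H, T and V and of KPC1 exceeded mono-culture, and those of clones E, K, M and N overlapped with it. On RPKM those of clone T and KPC1 overlapped too. The log2 fold changes were 0.22 with clone E (adjusted p = 0.12), 0.47 with clone H (adjusted p = 0.00040), 0.0077 with clone K (adjusted p = 0.97), -0.064 with clone M (adjusted p = 0.72), 0.14 with clone N (adjusted p = 0.30), 0.27 with clone T (adjusted p = 0.034), 0.54 with clone V (adjusted p = 6.9e-05) and 0.38 with KPC1 (adjusted p = 0.0030), and lines differed (adjusted p = 4.1e-05), although all neighbours in the order of means overlapped. The mean call was lost without scaling beyond library size (adjusted p = 0.099), as was that for clone T (adjusted p = 0.18). Clone T also lost its call without clone T replicate 2 or 3 or mono-culture replicate 2, 3 or 4 (adjusted p between 0.055 and 0.11), with no filter on low counts (adjusted p = 0.052) and with a minimum of 10 counts in every library (adjusted p = 0.053), and clone E gained one without its replicate 2 (adjusted p = 0.048).

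Atg7 (ENSMUSG00000030314, chr6:114643097-114860614, plus strand) encodes the E1-like enzyme that activates ATG8 proteins and Atg12. It was called in no line, and its co-culture mean was 0.048 (SE 0.067, adjusted p = 0.58). Mono-culture libraries had 22.3, 21.6, 22.1 and 18.9 CPM, and the co-culture means ran from 20.2 ± 2.42 CPM (clone H) to 24.3 ± 1.21 CPM (clone T). With clone T, the line with the largest difference, the libraries had 24.4, 22.8, 24.04 and 25.7 CPM, all above mono-culture, and the log2 fold change was 0.19 (SE 0.089, adjusted p = 0.070). On RPKM the clone T libraries overlapped with mono-culture. The lowest log2 fold change was -0.069 with clone H (adjusted p = 0.53).

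Tfeb (ENSMUSG00000023990, chr17:47737030-47792419, plus strand), the transcription factor that drives lysosomal and autophagy genes when it enters the nucleus, was called higher in the co-culture mean, 0.44 (SE 0.11, adjusted p = 0.0014). Mono-culture libraries had 14.3, 12.9, 16.7 and 16.9 CPM. The first of the lines gave 18.3, 24.6, 21.96 and 18.6 with clone E, 17.7, 16.7, 18.3 and 20.4 with clone H and 21.8, 22.6, 28.1 and 23.1 with clone K. Others gave 24.3, 21.7, 23.5 and 23.9 with clone M, 25.3, 27.5, 22.1 and 22.5 with clone N and 19.2, 20.1, 17.7 and 22.9 with clone T. The last gave 9.31, 16.9, 16.7 and 18.3 with clone V and 21.1, 24.2, 18.5 and 18.9 with KPC1. All libraries of clones E, K, M, N and T and of KPC1 exceeded mono-culture, those of clones H and V overlapped with it, and clone V replicate 1, at 9.31 CPM, was the lowest of the 36. On RPKM those of clone T overlapped too. Values are for the transcript and say nothing of where the protein was.

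Log2 fold changes of Tfeb were 0.46 with clone E (adjusted p = 0.015), 0.27 with clone H (adjusted p = 0.12), 0.66 with clone K (adjusted p = 0.0013), 0.62 with clone M (adjusted p = 0.0019), 0.68 with clone N (adjusted p = 0.00035), 0.39 with clone T (adjusted p = 0.024), 0.0096 with clone V (adjusted p = 0.96) and 0.45 with KPC1 (adjusted p = 0.0087), with a test among lines at adjusted p = 0.0020. All neighbours in the order of means overlapped, from clone N (24.3 ± 2.54 CPM) to mono-culture (15.2 ± 1.90 CPM). The call for clone E was lost without clone E replicate 2 or mono-culture replicate 2 (adjusted p between 0.056 and 0.060) and without the library richest in tumour markers of each line (adjusted p = 0.064). Clone T lost its call without clone T replicate 4 or mono-culture replicate 1 or 2 (adjusted p between 0.062 and 0.084) and without scaling beyond library size (adjusted p = 0.076). Clone H gained a call without clone V replicate 1 (adjusted p = 0.043). Calls for clones K, M and N and KPC1 held in each of these.

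Per length, the 10 genes spanned from a median of 215 RPKM for Sqstm1 to 5.62 RPKM for Atg7 over the 36 libraries. Gabarapl1 (90.5 RPKM), Map1lc3a (59.8 RPKM) and Map1lc3b (42.1 RPKM) followed Sqstm1. Wipi1 (22.98 RPKM), Becn1 (21.04 RPKM), Ulk1 (15.9 RPKM) and Atg5 (12.5 RPKM) lay lower, and Tfeb had 8.56 RPKM. The cargo receptor and the 3 ATG8 genes thus had the highest levels per length of the 10.

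A further 63 autophagy genes were examined as a list, of which 62 were tested and Tfec had 0 counts in every library. In the co-culture mean 14 of the 62 were called higher and 21 lower (median log2 fold change -0.052), beside 26.1% and 26.6% of all genes. Both other ATG8 genes were called lower. Gabarap fell from 549 ± 48.6 CPM in mono-culture to 296 ± 51.9 CPM with KPC1, with a mean log2 fold change of -0.72 (SE 0.086, adjusted p = 3.9e-08). Gabarapl2 fell less, -0.29 (SE 0.11, adjusted p = 0.020), and lost its call without mono-culture replicate 3 (adjusted p = 0.11). Together with Map1lc3b, 3 of the 5 ATG8 genes measured here were called lower and Map1lc3a higher.

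The counts by role that follow are in the co-culture mean too, to be read beside the same 26.1% higher and 26.6% lower of all genes. In the initiation list 1 of 4 genes was called higher and 2 lower. Atg101, a subunit of the Ulk1 complex, rose (0.56 (SE 0.079, adjusted p = 5.9e-07)) and Rb1cc1, the scaffold of that complex, fell (-0.27 (SE 0.080, adjusted p = 0.0051)). Atg101 was at 22.1 ± 1.76 CPM in mono-culture, and its mean ran from 22.03 ± 1.70 CPM (clone K) to 41.02 ± 2.83 CPM (clone V). Of 13 nucleation and lipid transfer genes, 5 were called higher and 1 lower, with Atg9a, the membrane protein that seeds the autophagosome, at 0.34 (SE 0.085, adjusted p = 0.0012) and Pik3r4, a subunit of the Beclin 1 complex, at -0.31 (SE 0.073, adjusted p = 0.00060). Of 9 conjugation genes, 3 were called in each direction. Atg16l1, which holds the Atg12-Atg5 conjugate at the membrane, rose (0.50 (SE 0.085, adjusted p = 1.3e-05)) and Atg4c, a protease that trims ATG8 proteins, fell (-0.52 (SE 0.10, adjusted p = 0.00011)).

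Among 15 other cargo receptors, 3 were called higher and 4 lower. Ncoa4, the receptor for ferritin, had the largest rise (0.37 (SE 0.085, adjusted p = 0.00053)), and Ccpg1, a receptor for the endoplasmic reticulum, had the largest fall (-0.51 (SE 0.16, adjusted p = 0.0091)), a call that was lost without mono-culture replicate 1 (adjusted p = 0.061). Of 10 genes of autophagosome fusion, 0 were called higher and 4 lower, beside 26.1% and 26.6% of all genes. These ran from Vamp8, the lysosomal SNARE protein, at -0.71 (SE 0.085, adjusted p = 3.2e-08), to Rab7, at -0.23 (SE 0.047, adjusted p = 0.00011). Mono-culture had 51.8 ± 3.07 CPM of Vamp8, and the co-culture with clone H 24.9 ± 3.65 CPM.

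In the list of MiT/TFE factors and their regulators, 2 of 9 genes tested were called higher and 5 lower. Mitf, a relative of Tfeb, rose (0.41 (SE 0.15, adjusted p = 0.020)), but lost its call without mono-culture replicate 3 or 4 (adjusted p between 0.056 and 0.079) and with limma on RPKM values (adjusted p = 0.059 and 0.060). Rragd, a Rag GTPase that helps to place Tfeb at the lysosome, had the largest fall of all listed genes (-1.13 (SE 0.18, adjusted p = 4.7e-06)), from 10.8 ± 1.96 CPM in mono-culture to 4.02 ± 0.812 CPM with clone T. Flcn, Fnip1, Fnip2 and Rragc, named here after their values were seen, were the other 4 called lower. Among the 8 co-cultures, 42 of the 62 listed genes differed by line, beside 72% of all genes.

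**Figure D4:**
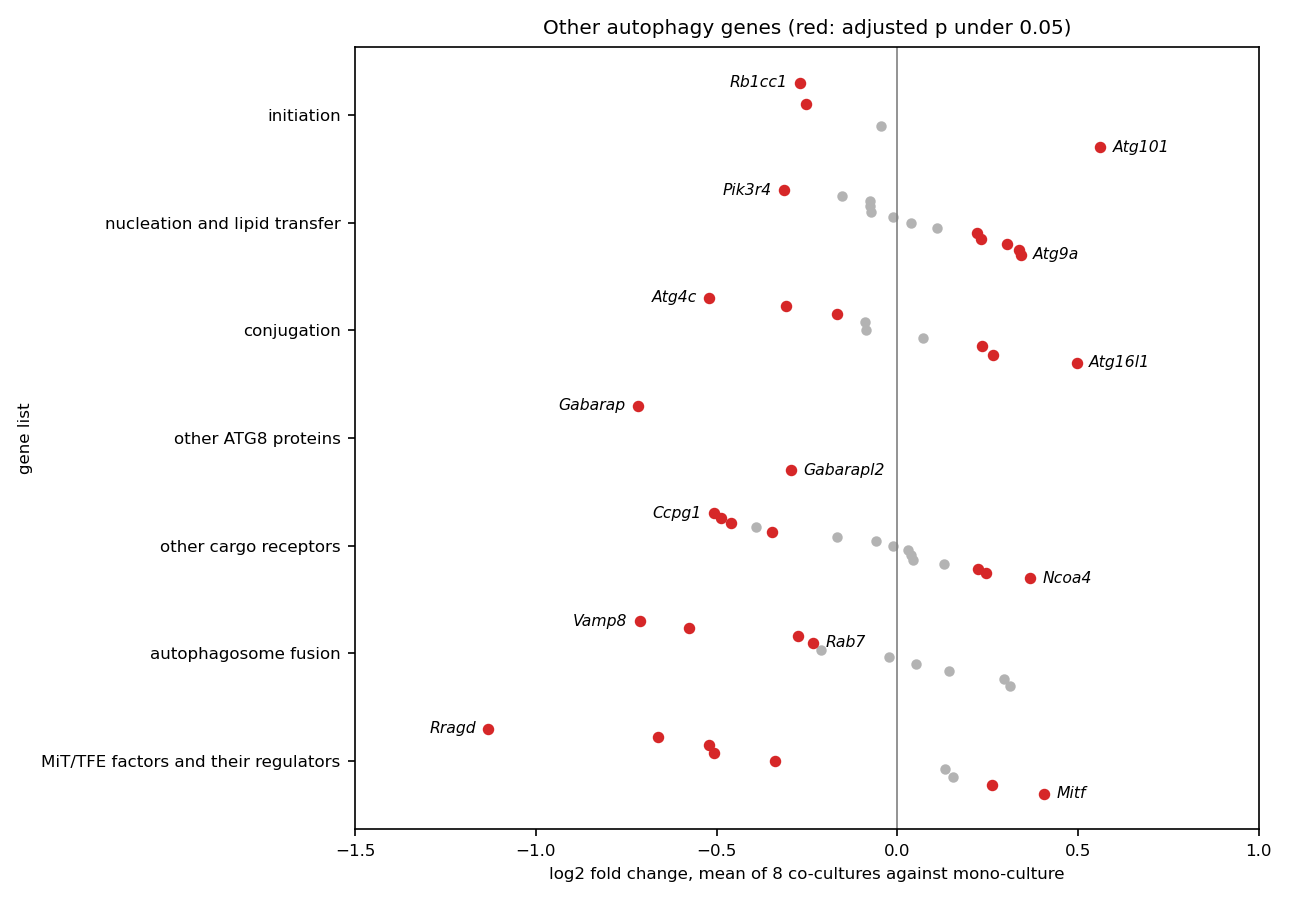
Log2 fold change of the mean of the 8 co-cultures against mono-culture (horizontal axis) for each of the 62 other autophagy genes tested, by list (rows), red where the adjusted p was under 0.05 and grey otherwise. The called gene with the highest and that with the lowest value of each list are named, from Rragd at -1.13 to Atg101 at 0.56.

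By line, the 62 genes were called higher and lower as follows. With clone E, 6 were higher (9.68% of the list beside 16.5% of all genes) and 18 lower (29% of the list beside 15.5% of all genes). Clone H gave 15 higher (24.2% beside 27.8%) and 19 lower (30.6% beside 26.4%). Clone K gave 2 higher (3.23% beside 10.4%) and 7 lower (11.3% beside 8.69%). These first lines had a smaller share of the list than of all genes among the higher calls and a larger share among the lower calls, as did clones M, N and T and KPC1. With clone M the counts were 2 higher (3.23% beside 12.2%) and 13 lower (21% beside 10.8%), and with clone N 10 higher (16.1% beside 19.7%) and 15 lower (24.2% beside 19.2%). With clone T 14 were higher (22.6% beside 25%) and 19 lower (30.6% beside 24.7%). KPC1 gave 16 higher (25.8% beside 30.5%) and 22 lower (35.5% beside 28.5%). Clone V, with 17 higher (27.4% beside 29.4%) and 15 lower (24.2% beside 28.9%), had a smaller share of the list than of all genes in both directions. The shares of the list and of all genes are descriptions, and their difference was not tested.

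For each of the 10 genes, the 3 tested genes with the most similar profile were found by Pearson's r of log2 CPM over the 36 libraries, which share cultures and library depth. The nearest to Map1lc3b were Gabarap (0.930), Clta (0.925), H3f3a (0.924). Those of Gabarapl1 were Sugt1 (0.925), Eif2a (0.923), Npm1 (0.911), and those of Atg5 were Tex30 (0.932), Hprt (0.924), Txnl1 (0.922). These are the closest matches, all above 0.9, and for Map1lc3b the first is another ATG8 gene. Sqstm1 was nearest to Ndrg1 (0.900), Acsl1 (0.893), Ipo4 (0.884), and Becn1 to Atad3a (0.886), Nop56 (0.882), Clock (0.877). Wipi1 had Tbc1d23 (0.881), Sod3 (0.874), Arhgap6 (0.868), Tfeb had Kcp (0.868), Chst15 (0.853), BC018242 (0.825) and Map1lc3a had Bpgm (0.809), Arf2 (0.734), Matn3 (0.732). The profiles of Ulk1 (Tmem231 (0.683), Kpna6 (0.666), Pim2 (0.663)) and Atg7 (Slc35f6 (0.685), Evc2 (0.580), Gpr116 (0.562)), which did not pass the test among lines, had the weakest matches.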

How the data were processed

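Fibroblast RNA (200 ng) was made into strand-specific poly(A) libraries (14 PCR cycles, paired-end reads of 76 bp). Unscaled counts for 39017 genes were deposited by the authors, who also gave RPKM values, with no scaling beyond gene length and library size, for 37746 of the genes. The submitters' processing notes name STAR, featureCounts, edgeR and mm10; versions, the annotation and the use of strand are not given in the sources used here. Coordinates are from GENCODE on GRCm38, matched by Ensembl identifier.

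Counts were filtered with filterByExpr, TMM-scaled and fitted with edgeR 4.0.16 (R 4.3.3) over the 36 libraries, 1 coefficient per culture, by the quasi-likelihood F-test with Benjamini-Hochberg adjustment over 14439 genes and a threshold of 0.05. Contrasts set the mean of the 8 co-cultures and each co-culture against mono-culture, and tested differences among the 8. The procedure was also run on simulated counts with changes set only in the clone K libraries, and the outcome is not given here. These counts had no structure by replicate number and few changed genes. They could therefore not check the pairing or the scaling. Alternatives were DESeq2 1.42.0, limma 3.58.1 on log2(RPKM + 1) or log2(RPKM + 0.1), other scaling and filters, a threshold of 0.1, a replicate block, fits of only the libraries compared, and leaving out each library. Leaving out the 8 libraries with most tumour markers was chosen after seeing the data. Library depth was 12532122 to 21985538 counts. For the genes with fewest counts, such as Atg7 (284 to 465 per library) and Tfeb (183 to 532), counting error need not be small beside the spread between libraries. The closest pair of libraries of a culture differed by a chi-square of 5.84 per degree of freedom, so none was counted as a duplicate.

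The 10 genes, the lists of other autophagy genes and the markers were chosen with earlier results of these data known. Named from the lists were the called genes with the highest and lowest co-culture mean log2 fold change, and for each of the 10 genes the 3 tested genes with the highest correlation.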

Additional observations from a re-analysis of the deposited data

Results flagged for a closer look

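In 6 of 90 sets of 4 libraries (10 genes in 9 cultures), the highest or lowest library lay far from the other 3, with a gap above the 95% limit of Dixon's test for 4 values, given as a share of the range of the 4 CPM values. Chance gives about 4.5 such sets. The gaps were 0.898 for Sqstm1 with clone K, 0.856 for Ulk1 with clone V, 0.858 for Ulk1 with KPC1, 0.892 for Becn1 with clone K, 0.838 for Atg5 with clone H and 0.853 for Atg7 with clone E.

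For 8 genes the difference from mono-culture depended on the tumour line, by the edgeR test among the 8 co-cultures. Of all genes tested, 72% passed the same test, so a difference by line was common and not particular to these genes. The range of log2 fold changes over the 8 lines was 0.91 for Sqstm1 and 0.91 for Gabarapl1. It was 0.67 for Tfeb, 0.61 for Map1lc3a, 0.60 for Atg5, 0.56 for Wipi1, 0.42 for Map1lc3b and 0.30 for Becn1. Sqstm1 with clone M and KPC1, and Gabarapl1 with clone K and KPC1, were the ends of the widest ranges.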

How the results depend on the processing

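No call changed direction. DESeq2, RLE scaling and the replicate block changed 1, 1 and 4 of 114 single-gene values by side of the threshold, and no scaling beyond library size changed 12. The replicate numbers were not taken as pairs, because same-numbered co-culture and mono-culture libraries deviated with correlations of -0.582 to 0.461 (5 of 32 above 0.1). This reason covers only the contrasts with mono-culture. Between co-cultures, 63 of 112 same-numbered pairs were above 0.1, and 25 of 32 libraries were closest to their own number. The test among lines made no use of this outside the replicate block. With the block the 4 values gained a call and none was lost. Members called higher in the co-culture mean fell to 2 without scaling and with limma on RPKM under either pseudocount, and members called lower fell to 1 without a filter. The same 3 settings gave 2 higher with clone H, 2 with clone T and 3 with clone V, and 2 lower with clone V, as did a minimum of 10 counts (2 lower). Without a filter, clone H had 1 lower. Without the library richest in tumour markers of each line, clone E had 1 higher. Over all genes, 3059 of 14439 were called higher in the mean without scaling (3774 in the main fit) and 4431 lower (3835). Under that setting clones H, T and V had 3257, 3039 and 3509 higher (4011, 3613 and 4245), and clone V 4771 lower (4169). Without a filter, 4126 of 24754 genes were lower in the mean and 3637 with clone H. With a minimum of 10 counts, 3630 of 11625 were lower with clone V. Without the richest libraries, 1847 of 14511 were higher with clone E. Leaving out single libraries gave 1 to 3 members lower in the mean, 1 to 2 higher with clone E, 2 to 5 higher and 1 to 2 lower with clone H, 1 to 2 higher and 1 to 3 lower with clone K, 1 to 2 lower with clone M, 0 to 3 lower with clone N, 2 to 4 higher with clone T and 1 to 2 lower with clone V. Smaller shifts in the counts of members are not listed, and counts over all genes with single libraries left out are not given here. The cause of these changes was not tested.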
